A study of Mus musculus with 10 samples.

Results

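The genes described here were 38 genes that microglia and macrophages are known to express, from the complement C1q chains to regulators of the leukocyte cytoskeleton. They were chosen from what these data had already shown and from the known biology of the cells, so their levels are given as a description. All 38 were found among the 23230 features of the deposited matrix, 37 under the symbol used here and Spi1 under its older symbol Sfpi1. Emr1 is the older symbol of the gene for F4/80.

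RNA sequencing values of 10 cultures of a mouse glioma model were used. The 3 AstroEGFR* libraries came from C57BL/6 cortical astrocytes of postnatal day 5 that lacked Ink4a/Arf, named p16/p19 in the labels, and carried a retroviral vector for the constitutively active human receptor EGFRvIII. The 3 AstroEGFR* Zfp423 libraries came from such astrocytes that also carried a vector for the zinc finger protein Zfp423, and their numbers name the astrocyte batch. The 4 PT libraries came from glioma propagating cells, taken from tumours that AstroEGFR* had formed in CD1 Nude mice, hosts that lack T cells but keep macrophages and microglia. All the cultures shared the Ink4a/Arf deletion and EGFRvIII and were below passage 10. The medium of AstroEGFR* held fetal bovine serum, while that of PT was serum-free with EGF and FGF2, so medium and tumour step cannot be told apart. PT1 and PT4 went back to astrocyte batch 1, PT2 to batch 2 and PT3 to batch 3.

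Microglia are the resident macrophages of the brain. They arise from yolk sac progenitors and depend on the receptor CSF1R and the transcription factor PU.1, which the gene Spi1 encodes. Cultures of cortical astrocytes are made from dissociated tissue and commonly hold some microglia, while astrocytes themselves do not use the PU.1 programme. Microglia and other macrophages make complement C1q, sense debris through receptors that signal with the adaptor TYROBP, and degrade what they take up in lysosomes. In bulk RNA, fewer cells of a type and less RNA per cell cannot be told apart.

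The start regions of the 4 members most abundant in AstroEGFR*1 Zfp423 that had a window in the table are shown because PU.1 binds near the start sites of many macrophage genes. Capitals mark GAGGAA, the core of the PU.1 site, or its reverse complement TTCCTC. Each window runs from 250 bases before to 50 bases after the start site in RefSeq on the assembly GRCm38.p6, written in the direction of transcription.

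C1qb, chr4:136886151-136886450, minus strand: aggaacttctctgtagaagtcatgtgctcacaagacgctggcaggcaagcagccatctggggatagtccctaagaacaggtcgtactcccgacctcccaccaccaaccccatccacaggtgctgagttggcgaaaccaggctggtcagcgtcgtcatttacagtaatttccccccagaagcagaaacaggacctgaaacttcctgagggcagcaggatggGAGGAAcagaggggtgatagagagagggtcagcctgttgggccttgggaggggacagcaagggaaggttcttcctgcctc

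C1qc, chr4:136892865-136893164, minus strand: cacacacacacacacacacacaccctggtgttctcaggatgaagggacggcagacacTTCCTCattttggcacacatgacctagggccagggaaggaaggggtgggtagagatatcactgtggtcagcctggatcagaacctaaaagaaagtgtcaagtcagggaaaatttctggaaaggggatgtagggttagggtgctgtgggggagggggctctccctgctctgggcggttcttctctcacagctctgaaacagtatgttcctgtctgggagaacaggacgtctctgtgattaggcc

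Ctss, chr3:95526536-95526835, plus strand: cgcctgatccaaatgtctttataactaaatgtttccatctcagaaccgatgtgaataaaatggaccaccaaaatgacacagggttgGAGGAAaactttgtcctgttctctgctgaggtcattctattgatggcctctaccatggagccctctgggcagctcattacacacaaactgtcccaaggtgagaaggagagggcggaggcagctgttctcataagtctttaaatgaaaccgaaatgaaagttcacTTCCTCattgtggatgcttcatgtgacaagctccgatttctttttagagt

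Lyz2, chr10:117282223-117282522, minus strand: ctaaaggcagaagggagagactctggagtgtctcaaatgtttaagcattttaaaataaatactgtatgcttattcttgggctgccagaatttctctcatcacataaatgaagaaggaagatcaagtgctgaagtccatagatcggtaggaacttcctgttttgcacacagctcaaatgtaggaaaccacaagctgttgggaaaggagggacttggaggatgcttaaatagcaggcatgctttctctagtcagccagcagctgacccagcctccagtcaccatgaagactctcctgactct

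Ctss held 2 matches, C1qb and C1qc 1 each, and Lyz2 none. RefSeq windows were found for 28 of the 38 members. At least 1 window held GAGGAA on either strand in 15 of the 28 (53.6%), against 31.3% of the 27025 genes in the table. A match describes these letters only.

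The values were FPKM, fragments scaled to transcript length and to the mapped fragments of the library, so levels may be compared between genes per unit length. The relative depth of the libraries was estimated from the most common ratio of FPKM over features with few fragments. With that of AstroEGFR*3 Zfp423 set to 1, AstroEGFR*3 reached 0.124, PT3 reached 0.166, and the remaining 7 lay between 0.914 and 1.80. The estimates rested on 52 features for AstroEGFR*3 and 42 for PT3, against 130 to 434 for the remaining 7. Small non-coding RNA and histone genes took 0.801% to 54.8% of the FPKM. Some genes of general use are listed near 0, such as Gapdh at 0.0106 to 50.1 FPKM, and Hmgcs1 is listed at 0 in all 10 libraries, so a 0 is reported as listed. The vector gene Zfp423 stood at 4.30, 3.25 and 3.48 FPKM in AstroEGFR*1, 2 and 3, and at 15.7, 9.73 and 105 FPKM in the Zfp423 libraries of the same batches. In PT1 to PT4 it stood at 0.837, 2.78, 0.641 and 1.77 FPKM. The libraries with the vector did not stand together. Across features whose mean reached 1 FPKM, small non-coding RNA and histones left out, AstroEGFR*1 Zfp423 and AstroEGFR*2 Zfp423 were most like each other (Pearson's r = 0.89 over 12285 features), and AstroEGFR*3 Zfp423 was most like AstroEGFR*2 (0.91), not AstroEGFR*3 (0.80).

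The microglia and macrophage genes were abundant in 2 of the 10 libraries, AstroEGFR*1 Zfp423 and AstroEGFR*2 Zfp423. Their FPKM summed to 6515 in AstroEGFR*1 Zfp423, which is 1.09% of the FPKM of that library. They summed to 2850 (0.407%) in AstroEGFR*2 Zfp423. The third library with the vector, AstroEGFR*3 Zfp423, held 90.5 FPKM (0.0105%), and 96.0% of that was Lgals3. In AstroEGFR*1, 2 and 3 the sums were 382, 71.5 and 77.7 FPKM. In PT1 to PT4 they were 70.3, 48.2, 15.0 and 27.9 FPKM. Without Lgals3 and Tmem119, which were also abundant elsewhere, the other 36 genes summed to 6316 and 2478 FPKM in the 2 high libraries and to between 3.55 and 73.1 FPKM in the other 8.

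**Figure D1:**
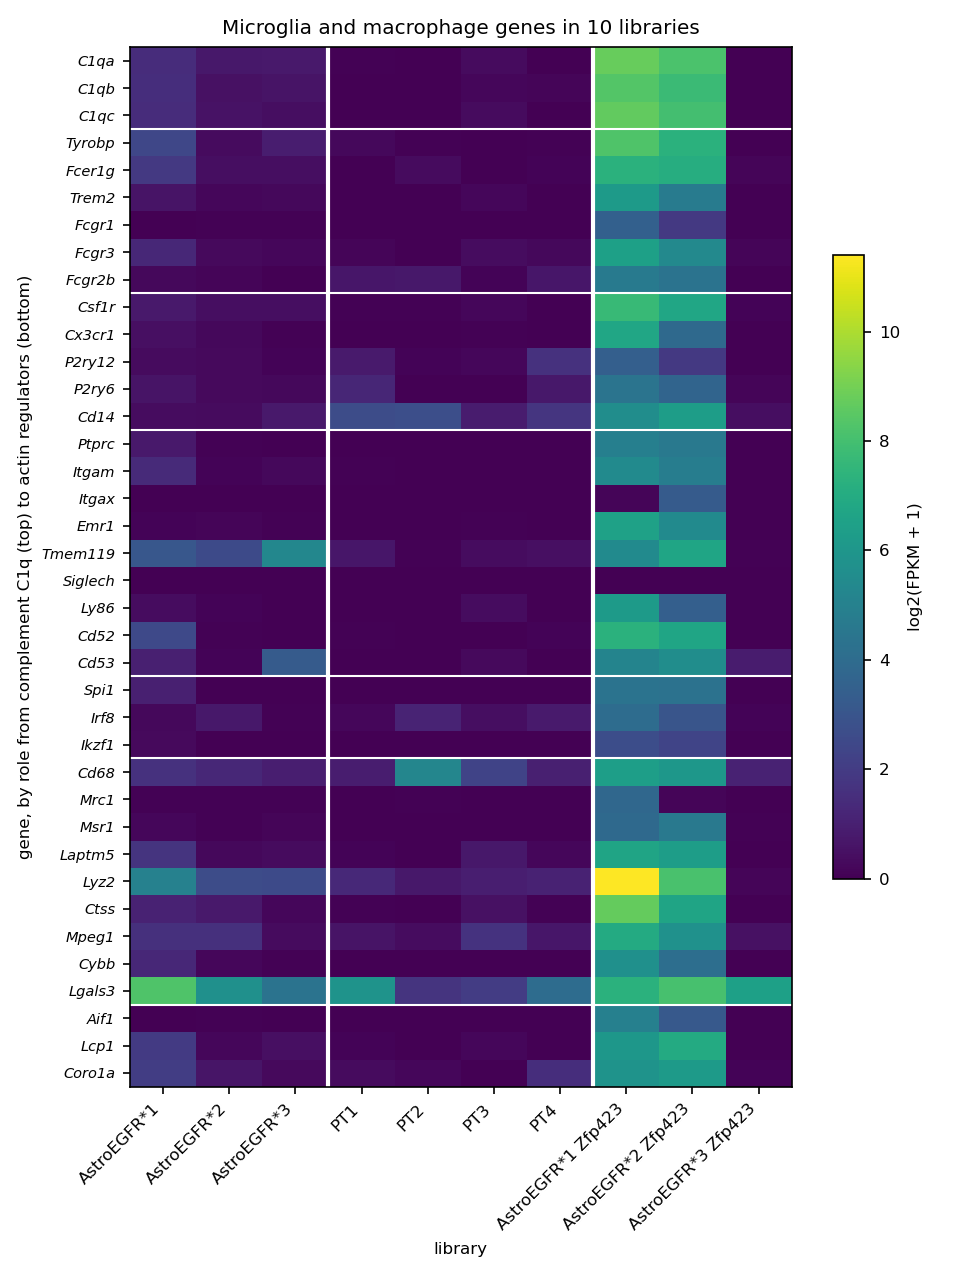
Level of each of the 38 genes (rows, grouped by role with white lines between the groups) in each of the 10 libraries (columns), as log2(FPKM + 1), with brighter colours for higher levels. AstroEGFR*1 Zfp423 and AstroEGFR*2 Zfp423 stand out in all groups, while AstroEGFR*3 Zfp423 is dark apart from Lgals3.

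Of the 38 genes, 30 had their highest value in AstroEGFR*1 Zfp423 and 7 in AstroEGFR*2 Zfp423. The exception was Lgals3. Both libraries lay above all the other 8 for 36 of the 38, where 5.82% of the 19036 features above 0 in some library did so. The members were chosen with this pattern known, so the difference from that share is not evidence. At least 10 FPKM was reached by 34 of the 38 genes in AstroEGFR*1 Zfp423 and by 30 in AstroEGFR*2 Zfp423, but by 0 to 2 in each of the other libraries. In AstroEGFR*3 Zfp423 16 of the 38 were listed at 0. The estimated depth of the 2 high libraries was 1.09 and 1.06 times its own, and small non-coding RNA and histone genes took 54.8% of its FPKM, against 35.8% and 36.1% in them. The part of depth and of these genes in the values at 0 was not tested.

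Complement C1q starts the classical pathway and tags synapses and debris for uptake, and its 3 chains come from neighbouring genes. C1qa stood at 433 and 290 FPKM in AstroEGFR*1 Zfp423 and AstroEGFR*2 Zfp423 and was listed at 0 in AstroEGFR*3 Zfp423. It stood at 1.71, 0.651 and 0.697 FPKM in AstroEGFR*1, 2 and 3, and at 0.0598, 0, 0.266 and 0.0123 FPKM in the 4 PT libraries in their order. The 2 high libraries lay far above the rest, and every PT value lay below every AstroEGFR* value. C1qb followed with 329, 217 and 0 FPKM with the vector, 1.77, 0.414 and 0.535 FPKM in AstroEGFR*, and 0.0245, 0, 0.136 and 0.101 FPKM in PT. C1qc stood at 406, 256 and 0 FPKM with the vector, 1.74, 0.472 and 0.360 FPKM in AstroEGFR*, and 0.0123, 0, 0.275 and 0.0127 FPKM in PT. The 3 chains kept the same order in both high libraries, with C1qa above C1qc and C1qc above C1qb.

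TYROBP, also called DAP12, and the Fc receptor chain FCER1G carry the activation motif through which several receptors of these cells signal. Tyrobp stood at 301, 154 and 0 FPKM in the 3 Zfp423 libraries, at 4.41, 0.243 and 0.858 FPKM in AstroEGFR*, and at 0.187, 0.0424, 0 and 0.0558 FPKM in PT. Its partner Trem2, a receptor for lipids, stood at 72.3, 25.5 and 0 FPKM with the vector, at 0.496, 0.157 and 0.173 FPKM in AstroEGFR*, and at 0, 0, 0.132 and 0.0122 FPKM in PT. AstroEGFR*1 Zfp423 was the highest library for all 6 genes of this group. Fcer1g reached 154 and 136 FPKM in the 2 high libraries and at most 2.76 FPKM elsewhere. The Fc gamma receptor genes Fcgr3, Fcgr2b and Fcgr1 reached 89.5, 24.4 and 10.1 FPKM in AstroEGFR*1 Zfp423 and 40.1, 19.0 and 2.68 FPKM in AstroEGFR*2 Zfp423. Their highest values in the other 8 libraries were 1.43, 0.689 and 0.0637 FPKM.

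Among the receptors for cytokines, chemokines, purines and lipopolysaccharide, Csf1r stood at 202, 108 and 0.0686 FPKM in the 3 Zfp423 libraries. It stood at 0.691, 0.333 and 0.330 FPKM in AstroEGFR* and at 0.0330, 0.0332, 0.158 and 0.0213 FPKM in PT. The high libraries stood well above the rest, and the PT values did not overlap the AstroEGFR* values. Cx3cr1, the receptor for fractalkine, stood at 105, 13.7 and 0.00549 FPKM with the vector, at 0.400, 0.171 and 0.0430 FPKM in AstroEGFR*, and at 0, 0.0198, 0.0329 and 0 FPKM in PT. P2ry12, a purine receptor of resting microglia, was lower than both in the 2 high libraries but above both in all 4 PT libraries, at 9.95, 2.68 and 0.0271 FPKM with the vector, 0.272, 0.222 and 0.0712 FPKM in AstroEGFR*, and 0.782, 0.0970, 0.163 and 2.10 FPKM in PT. PT4 came close to AstroEGFR*2 Zfp423 in this gene. P2ry6, a receptor for uridine nucleotides, reached 19.7 and 11.9 FPKM in the high libraries and 1.32 FPKM in PT1, the highest of the other 8. Cd14, a coreceptor for lipopolysaccharide, was the only member whose PT values all lay above the AstroEGFR* values.

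The surface proteins of the lineage divided into those present in both high libraries and those in 1 or neither. Ptprc, the gene for the pan-leukocyte phosphatase CD45, stood at 28.9, 23.3 and 0.00385 FPKM with the vector, at 0.730, 0.0474 and 0 FPKM in AstroEGFR*, and at 0.0176, 0, 0 and 0.0156 FPKM in PT. Itgam, for the integrin alpha chain CD11b, reached 43.3 and 27.8 FPKM and at most 1.53 FPKM elsewhere. Emr1 (F4/80) reached 90.3 and 42.5 FPKM and at most 0.120 FPKM elsewhere. Cd52, Cd53 and Ly86, of which Cd53 encodes a tetraspanin and Ly86 a partner of a Toll-like receptor homologue, reached 152, 34.4 and 73.0 FPKM in AstroEGFR*1 Zfp423 and 105, 46.7 and 10.1 FPKM in AstroEGFR*2 Zfp423. Cd53 also stood at 8.59 FPKM in AstroEGFR*3. Itgax, for the integrin alpha chain CD11c, reached 8.60 FPKM in AstroEGFR*2 Zfp423 and 0.110 FPKM in AstroEGFR*1 Zfp423. Siglech, a lectin gene used as a marker of microglia, was listed at 0 in 8 libraries and at no more than 0.0166 FPKM in any.

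Tmem119 is used as a marker of microglia in the brain, and other tissues such as bone express it too. It stood at 43.5, 104 and 0.0513 FPKM in the Zfp423 libraries, at 7.61, 4.89 and 38.0 FPKM in AstroEGFR*, and at 0.626, 0.0367, 0.310 and 0.378 FPKM in PT. AstroEGFR*3 came close to AstroEGFR*1 Zfp423 in this gene, while its C1q, Csf1r and Ptprc stayed below 1 FPKM. The same 3 libraries had the highest Col1a1, a collagen gene of fibroblasts that was examined after its values were seen, at 1946 FPKM in AstroEGFR*2 Zfp423, 1816 FPKM in AstroEGFR*3 and 946 FPKM in AstroEGFR*1 Zfp423. Whether Tmem119 came from macrophages was not tested.

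Of the transcription factors, Spi1 stood at 19.6, 18.4 and 0 FPKM in the Zfp423 libraries, at 0.990, 0.0138 and 0 FPKM in AstroEGFR*, and at 0.00944, 0, 0 and 0.00965 FPKM in PT. Its level was nearly equal in the 2 high libraries. Irf8, which acts with PU.1 in macrophage development, reached 15.4 and 7.02 FPKM there and 1.21 FPKM in PT2, the highest of the others. Ikzf1, the gene for the lymphoid and myeloid factor Ikaros, reached 5.48 and 4.12 FPKM and at most 0.219 FPKM elsewhere.

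Genes of the lysosome, of scavenging and of killing held the most abundant member. Lyz2, the gene for macrophage lysozyme, stood at 2702, 282 and 0.111 FPKM in the Zfp423 libraries and made up 41.5% of the summed FPKM of the members in AstroEGFR*1 Zfp423 and 9.91% in AstroEGFR*2 Zfp423. It stood at 31.6, 5.24 and 4.84 FPKM in AstroEGFR* and at 1.49, 0.643, 0.959 and 1.14 FPKM in PT. All PT values lay below all AstroEGFR* values, and AstroEGFR*3 Zfp423 was the lowest library of the 10. Ctss, for the lysosomal protease cathepsin S, stood at 412, 101 and 0 FPKM with the vector and at no more than 1.10 FPKM elsewhere. Mpeg1, for the pore-forming perforin-2, reached 123 and 52.9 FPKM, and its highest value elsewhere was 2.19 FPKM in PT3. Laptm5, a lysosomal membrane protein gene of blood cells, reached 101 and 80.5 FPKM and at most 2.27 FPKM elsewhere. Cybb, for the catalytic subunit of the phagocyte NADPH oxidase, reached 51.8 and 16.2 FPKM and at most 1.42 FPKM elsewhere. The scavenger receptor gene Msr1 reached 13.7 and 23.4 FPKM and at most 0.158 FPKM elsewhere. Mrc1, for the mannose receptor CD206, reached 13.2 FPKM in AstroEGFR*1 Zfp423 and 0.123 FPKM in AstroEGFR*2 Zfp423.

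Cd68 and Lgals3 were less restricted. Cd68, for a lysosomal glycoprotein, stood at 81.6, 65.0 and 1.13 FPKM with the vector, at 2.04, 1.42 and 0.952 FPKM in AstroEGFR*, and at 0.884, 36.5, 3.93 and 0.975 FPKM in PT. PT2 was the highest of the PT libraries, though its gap to the others did not pass Dixon's criterion at 95%. In PT2, C1qa, C1qb, C1qc, Spi1 and Ptprc were listed at 0, while Cd14, Irf8 and Fcer1g were at their highest of the PT libraries there. Lgals3, for galectin-3, which astrocytes and many other cells also make, stood at 155, 268 and 86.9 FPKM with the vector, at 301, 51.1 and 19.1 FPKM in AstroEGFR*, and at 57.4, 2.32, 3.08 and 15.6 FPKM in PT. AstroEGFR*1 was its highest library, and AstroEGFR*3 Zfp423 lay above AstroEGFR*3.

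The 3 actin regulators were high in both libraries, Aif1 more so in AstroEGFR*1 Zfp423 and Lcp1 and Coro1a more so in AstroEGFR*2 Zfp423. Aif1, the gene for the microglial marker IBA1, stood at 30.7, 8.04 and 0 FPKM with the vector, at 0.0306, 0.0455 and 0 FPKM in AstroEGFR*, and at 0, 0.0244, 0 and 0 FPKM in PT. Lcp1, for the bundling protein L-plastin, reached 64.0 and 126 FPKM and at most 2.82 FPKM elsewhere. Coro1a, for coronin-1A, reached 56.3 and 73.6 FPKM and at most 3.22 FPKM elsewhere.

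The 2 high libraries were not copies of each other. On FPKM + 1, 14 of the 38 genes were at least 2-fold higher in AstroEGFR*1 Zfp423, where 7.27% of all features were, 2 were at least 2-fold higher in AstroEGFR*2 Zfp423, where 4.7% were, and 22 were within 2-fold. As ratios of FPKM with nothing added, which grow large where the lower value is near 0, as for Mrc1 and Itgax, Mrc1 was 107 times higher in AstroEGFR*1 Zfp423, Lyz2 9.57 times, Cx3cr1 7.63 times, Ly86 7.25 times and Ctss 4.07 times. Itgax was 78.2 times higher in AstroEGFR*2 Zfp423 and Tmem119 2.40 times. Pearson's r between both libraries over the 38 genes, which are not independent, was 0.83 on log2(FPKM + 1). With 1 library per batch, these differences have no replicate check.

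**Figure D2:**
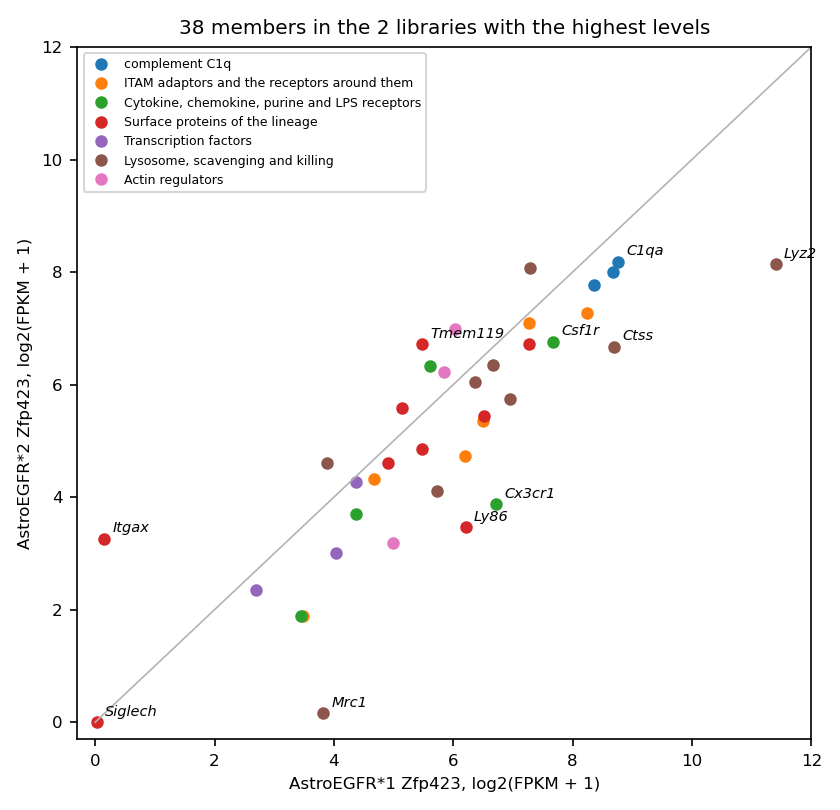
Each point is 1 of the 38 genes, coloured by role, with its level as log2(FPKM + 1) in AstroEGFR*1 Zfp423 on the horizontal axis and in AstroEGFR*2 Zfp423 on the vertical axis, and the line marks equal levels. Most points lie on or below the line, with Lyz2, Ctss, Cx3cr1, Ly86 and Mrc1 farthest below it and Itgax farthest above it.

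The Zfp423 libraries were compared with AstroEGFR* of the same batch, with 1 library of each per batch. None of the 10 libraries carried an empty vector, so the vector, the infection and the make-up of the culture cannot be told apart. In batch 1, 35 of the 38 genes were at least 2-fold higher with the vector on FPKM + 1, where 7.93% of the 19036 features were. In batch 2, 36 of the 38 were, where 8.78% of all features were. In batch 3, 1 gene (Lgals3) was at least 2-fold higher, where 6.61% of all features were, and 3 (Tmem119, Lyz2 and Cd53) were at least 2-fold lower, where 11.5% of all features were. The median difference over the 38 genes was 4.60 in batch 1, 4.54 in batch 2 and -0.08 in batch 3 on the log2(FPKM + 1) scale, which understates the change of weakly expressed genes, and 0.00 over all features in each batch. The summed FPKM was 17.0 times that of AstroEGFR* in batch 1, 39.9 times in batch 2 and 1.16 times in batch 3. Without Lgals3, Lcp1, Cd68, Ctss and Coro1a, which other cell types also express, the ratios were 80.3, 126 and 0.0422, so batch 3 turned from higher to lower. Without Lgals3 and Tmem119, the latter a large part of the sum in AstroEGFR*3, they were 86.4, 159.7 and 0.172. With the median of the 38 genes in place of the sum they were 60.8, 230.5 and 0.0363. Zfp423 itself was 3.64, 2.99 and 30.2 times its level in AstroEGFR* in batches 1, 2 and 3. All these ratios pair libraries by the batch number in their labels. Over the 12285 features above, Pearson's r with AstroEGFR* of the own batch was 0.84, 0.79 and 0.80 in batches 1, 2 and 3. None of the 3 Zfp423 libraries was most like AstroEGFR* of its own batch, and AstroEGFR*3 Zfp423 was more like AstroEGFR*2, as given above. The part of the low estimated depth of AstroEGFR*3 in its r was not tested.

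**Figure D3:**
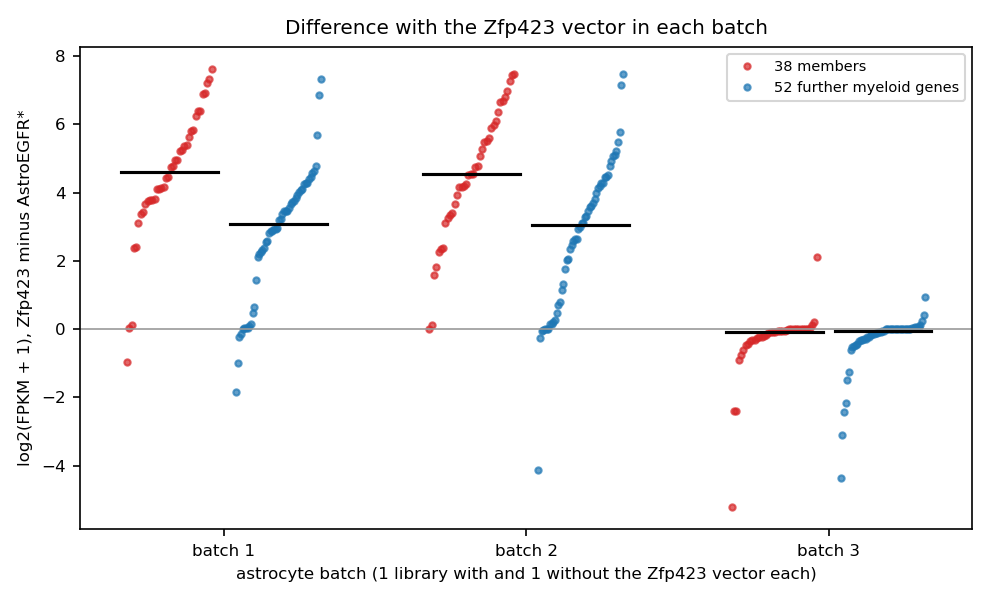
Difference in log2(FPKM + 1) between the library with the Zfp423 vector and AstroEGFR* of the same batch, for each of the 38 members (red) and 52 further myeloid genes (blue), ordered by size, with the median as a black line. Batches 1 and 2 have medians of 4.60 and 4.54 for the members, and batch 3 one of -0.08.

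With limma over the 12366 features whose mean reached 1 FPKM, the batch as a block and Benjamini-Hochberg adjustment, 0.0% of the features passed an adjusted p of 0.05, and 913 had an unadjusted p below 0.05. The test covered 37 of the 38 members, of which 0 passed (7 at an unadjusted p below 0.05). Over AstroEGFR* alone 12 of the 38 had a mean of at least 1 FPKM, and Csf1r had one of 0.452 FPKM. Most members thus entered the test through the libraries where they were high, which also led to their choice. The counts of members and the values of single members in this paragraph are descriptions that support nothing. For Csf1r the mean difference was 4.31 ± 1.62 (SE, n = 3 batches, adjusted p = 0.628 with limma), from 6.91, 6.35 and -0.32 in the 3 batches. For Cd68 it was 3.22 ± 1.10 (SE, n = 3 batches, adjusted p = 0.628 with limma), from 4.76, 4.77 and 0.12. In both genes batch 3 lay far below the other batches. Without batch 3, the batch that lacked the pattern, 34 of 37 members had an unadjusted p below 0.05, where 1761 of all 12325 features did, and the lowest adjusted p of a member was 0.0671 with limma. Without batch 1, 1 of 34 members and 241 of 12230 features had one, and without batch 2, 0 of 36 members and 720 of 12307 features. In each of these settings 0 members passed. Of all features, 0 passed without batch 3, 0 without batch 1 and 51 without batch 2.

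Tumour-derived PT cells were compared with AstroEGFR* to ask what differed between the astrocytes and the cells of the tumours they formed. In PT, 15 of the 38 genes lay below AstroEGFR* in every library, where 7.56% of the 19036 features did, and 1 (Cd14) lay above, where 5.15% did. The members were chosen with earlier results of these data known, so the differences from these shares are not evidence. Without AstroEGFR*3 and PT3, the libraries of low estimated depth, 25 of the 38 lay below, where 15.4% of the features did. Most of these genes were below 2 FPKM in AstroEGFR*, and the 15 included the 3 C1q genes, Tyrobp, Fcer1g, Trem2, Csf1r, Cx3cr1, Tmem119 and Lyz2.

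With limma over the 12261 features whose mean over the 7 libraries reached 1 FPKM, 152 (1.24%) passed an adjusted p of 0.05. Of the 38 members, 7 reached that mean, 0 passed and 3 had an unadjusted p below 0.05, where 1664 of the 12261 features did. Tmem119 was 3.25 lower on the log2(FPKM + 1) scale (difference -3.25 ± 0.63, SE, n = 3 and 4, adjusted p = 0.0624 with limma), and was lower in PT1, PT2, PT3 and PT4 than in AstroEGFR* of its own batch. For Lyz2 the difference was -2.38 ± 0.61 (SE, n = 3 and 4, adjusted p = 0.132 with limma). For Lgals3 it was -2.67 ± 1.22 (SE, n = 3 and 4, adjusted p = 0.399 with limma). With the astrocyte batch as a replicate block, a pairing of PT with AstroEGFR* that the labels do not give, 475 features passed, and with them Tmem119 (-3.23 ± 0.52, adjusted p = 0.0391 with limma) and Lgals3 (-3.20 ± 0.53, adjusted p = 0.0414 with limma). With PT1 and PT4, which share batch 1, averaged and no block, 61 features and 0 members passed. The lowest adjusted p of a member was then 0.135 with limma.

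Cd14 stood at 5.33, 5.76, 0.811 and 2.36 FPKM in PT1 to PT4, at 0.295, 0.266 and 0.707 FPKM in AstroEGFR*, and at 47.8, 79.4 and 0.340 FPKM with the vector. The PT and AstroEGFR* values did not overlap, but the gap between PT3 and AstroEGFR*3 was small. Its difference of 1.51 ± 0.52 did not pass (SE, n = 3 and 4, adjusted p = 0.260 with limma). Cd68, Cd53 and Mpeg1 differed by 1.08 ± 1.00, -1.37 ± 0.72 and -0.32 ± 0.50 (SE, n = 3 and 4), and their values overlapped between the groups (adjusted p of 0.716, 0.464 and 0.845 with limma).

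**Figure D4:**
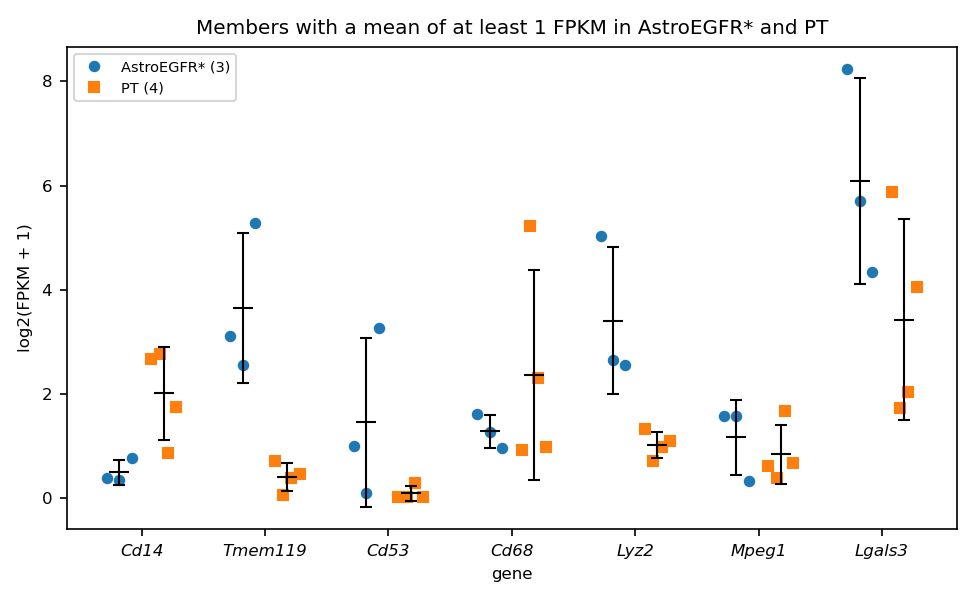
Level as log2(FPKM + 1) of the 7 members whose mean reached 1 FPKM over the AstroEGFR* (blue, n = 3) and PT (orange, n = 4) libraries, with black bars for the mean and SD. The groups do not overlap for Cd14, Tmem119 and Lyz2, and PT2 is the high point of Cd68.

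Another 52 genes of myeloid cells, listed with earlier results known, showed the same libraries as high. Both high libraries lay above the other 8 for 39 of the 52, where 5.82% of all features did so. On FPKM + 1, 40 of the 52 were at least 2-fold higher with the vector in batch 1 (7.93% of all features), 38 in batch 2 (8.78%) and 0 in batch 3 (6.61%). In batch 3, 6 of the 52 were at least 2-fold lower (11.5% of all features). The list was drawn up with this pattern known, so these counts are not independent evidence. With the vector, 42 of the 52 reached a mean of 1 FPKM and were tested, and 0 passed by limma, where 0 of 12366 features did. Of the 42, 5 had an unadjusted p below 0.05, where 913 of all features did. In PT 10 of the 52 were tested, and 0 passed by limma, where 152 of 12261 features did. Of the 10, 2 had an unadjusted p below 0.05, where 1664 of all features did. The other 42 were too low over AstroEGFR* and PT to be tested. Most of the list thus entered the test with the vector through the libraries where it was high, and those counts support nothing. With the replicate block, Arhgdib, which encodes an inhibitor of small GTPases in blood cells, passed in PT with a difference of -2.91 ± 0.44 (SE, adjusted p = 0.0350 with limma).

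Genes of this list that differ between kinds of macrophage were examined after their values were seen. Of genes known from microglia, Fcrls stood at 169 and 8.63 FPKM in AstroEGFR*1 Zfp423 and AstroEGFR*2 Zfp423 and at no more than 0.467 FPKM elsewhere, and Gpr34 at 17.0 and 0.779 FPKM. Sall1, a factor of microglia that neural progenitors also express, stood at 11.6 and 0.459 FPKM there and at 9.90 to 43.8 FPKM elsewhere. Of genes known from macrophages at the borders of the brain, Ms4a7 stood at 161 and 63.1 FPKM and Pf4 at 23.8 and 142 FPKM, while Cd163 and Lyve1 were at or below 0.104 FPKM in both. Of monocyte genes, Ccr2 was at or below 0.232 FPKM in both, and Ly6c2 stood at 0.555 and 2.20 FPKM.

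The ligands of CSF1R were made by all the cultures. Csf1 stood at 108, 71.5 and 71.4 FPKM in AstroEGFR*, at 30.6, 61.7, 69.1 and 26.2 FPKM in PT, and at 45.3, 160 and 23.2 FPKM with the vector. Il34 stood at 12.2, 9.26 and 7.93 FPKM in AstroEGFR*, at 11.3, 38.0, 50.9 and 5.48 FPKM in PT, and at 3.89, 3.22 and 19.9 FPKM with the vector. Neither passed in either comparison, with adjusted p of 0.376 and 0.643 in PT and of 0.815 and 0.844 with the vector by limma. Of all 8 ligands and inhibitory signals listed, 0 were higher in both high libraries than in the other 8, and of 8 complement genes outside C1q 0 were. Of 17 genes of phagocyte state that other cells also make, 5 were. Of all 19036 features above 0 in some library, 5.82% were, and these lists were drawn up with earlier results known.

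Markers of other cell types moved with the same libraries. The 6 fibroblast and meninges markers summed to 4522 and 6273 FPKM in the high libraries and to 5138 FPKM in AstroEGFR*3, but to 228 FPKM in AstroEGFR*3 Zfp423 and to between 1.08 and 510 FPKM in the other 6. The 8 astrocyte markers summed to 133 FPKM in AstroEGFR*1 Zfp423 and 7.22 FPKM in AstroEGFR*2 Zfp423, against 813 FPKM in AstroEGFR*3 Zfp423, 356 to 963 FPKM in AstroEGFR* and 151 to 684 FPKM in PT. Gfap, the intermediate filament gene of astrocytes, stood at 7.94 and 1.11 FPKM in the high libraries and 393 FPKM in AstroEGFR*3 Zfp423, so little of the labelled cell type's markers was seen in AstroEGFR*2 Zfp423. Gjb6 was listed at 0 in all 10. The 5 markers of oligodendrocyte precursors summed to 32.5 and 52.0 FPKM in the high libraries, the lowest of the 10, and to between 65.9 and 1673 FPKM in the other 8, with Olig1 and Olig2 listed at 0 in AstroEGFR*2 Zfp423. These 5 did not move together. On FPKM + 1, 1 was at least 2-fold higher with the vector in batch 1 (7.93% of all features) and 1 in batch 2 (8.78%), there by 4.59 on the log2 scale. At least 2-fold lower were 2 in each batch, where 1016 and 1583 of the 19036 features were. The 6 oligodendrocyte markers (37.9 and 14.6 FPKM) and the 6 neuron markers (21.2 and 33.5 FPKM) did not set both high libraries apart from the others, at 16.7 to 111 and 6.59 to 101 FPKM. The part of these cell types in the result was not tested. The 11 lymphocyte markers summed to no more than 2.91 FPKM and the 6 endothelial markers to no more than 3.10 FPKM in any library.

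**Figure D5:**
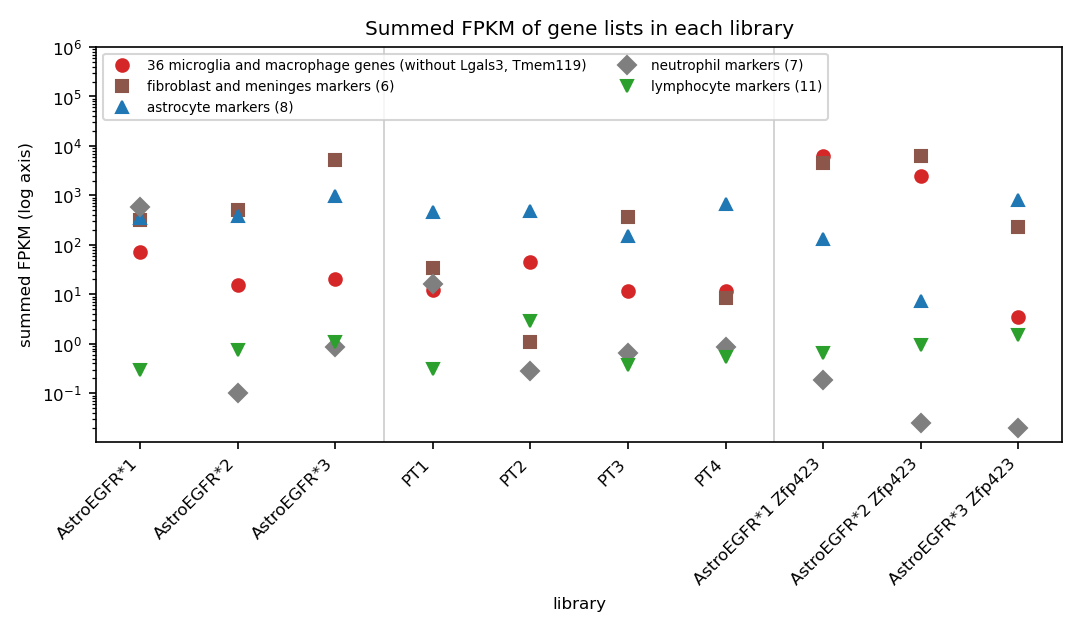
Summed FPKM (log axis) of the microglia and macrophage genes without Lgals3 and Tmem119 and of markers of 4 other cell types in each of the 10 libraries. The red points rise above 1000 FPKM in AstroEGFR*1 Zfp423 and AstroEGFR*2 Zfp423, where the astrocyte markers are lowest, and the neutrophil markers are high in AstroEGFR*1.

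AstroEGFR*1 held the most of these transcripts among the other 8 libraries, with the highest value for 23 of the 38 genes, where 13.1% of all features were highest there, and 18 genes at or above 1 FPKM, against 2 to 5 genes elsewhere. The 7 neutrophil markers found, led by S100a9 at 253 FPKM and S100a8 at 244 FPKM, summed to 581 FPKM in AstroEGFR*1, to 15.9 FPKM in PT1 of the same batch and to below 1 FPKM in all others. The high libraries held 0.184 and 0.0250 FPKM of them.

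The 10 other features whose pattern over the 10 libraries was most like the mean of the 35 members whose own mean reached 1 FPKM were Aoah, Sash3, Sla, Myo1f, Arhgap25, Clec4d, Nckap1l, Lair1, Was and Hmha1. Their Pearson's r on log2(FPKM + 1) lay between 0.996 and 0.999 among 12441 features compared. The highest, Aoah, which encodes an enzyme that inactivates lipopolysaccharide, stood at 7.05 and 4.97 FPKM in the high libraries and at no more than 0.462 FPKM elsewhere. These correlations rest on the 2 high libraries.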

How the data were processed

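The authors deposited 1 matrix of FPKM values for 10 RNAseq libraries and 23230 features named by gene symbol. The submitters' processing notes name TopHat 1.3, Cuffnorm and mouse assembly mm9. The authors' own test is not given in the sources used here. FPKM hold no counts, so the precision that depth gives to each value is unknown and the relative depth is an estimate. The labels name a TruSeq kit and a lentiviral Zfp423 vector, while the paper describes a retroviral vector and libraries depleted of ribosomal RNA.

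Groups came from the labels. The batches of PT came from the paper alone, where a drawing of the batch clusters names the PT of each, and the replicate block in PT rests on them. AstroEGFR* and PT, and AstroEGFR* with and without Zfp423 (batch as a block), were tested by limma (version 3.58.1, R 4.3.3). The scale was log2(FPKM + 1), features needed a mean FPKM of 1 or more, and the fit used a mean-variance trend and Benjamini-Hochberg adjustment at 0.05. Descriptions used Python 3.11.15 with pandas 2.3.3 and numpy 2.4.6, and figures matplotlib 3.10.9. Each library is 1 culture. Same-numbered AstroEGFR* and Zfp423 libraries share an astrocyte batch by design. Their deviations from the group means correlated with r = 0.28, -0.16 and -0.31 in batches 1, 2 and 3, and those of AstroEGFR* and PT of 1 batch with r = 0.14 to 0.44. Of 34 promoter windows, 30 were found as written in GENCODE transcripts of the gene and 0 as the reverse complement.

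The members and all lists were chosen with earlier results of these data known. Every member is named. Values in every library are given for C1qa, C1qb, C1qc, Tyrobp, Trem2, Csf1r, Cx3cr1, P2ry12, Ptprc, Tmem119, Spi1, Lyz2, Cd68, Lgals3, Aif1, the ligands Csf1 and Il34, members past the threshold and the 5 with the highest mean, and the 10 features most correlated with the members are named. Of 8 neutrophil markers 7 were found and of 53 further myeloid genes 52. Some single genes of the latter list are not reported here.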

Additional observations from a re-analysis of the deposited data

Results flagged for a closer look

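The members moved in different ways with the Zfp423 vector in the 3 batches. Their median difference in log2(FPKM + 1) was 4.60 in batch 1 and 4.54 in batch 2, against -0.0833 in batch 3, and each batch has 1 library with and 1 without the vector, so the difference between batches was not tested.

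Among the 4 PT libraries, Cd53 stood at 0.223 FPKM in PT3, far from the other 3 by Dixon's criterion at 95%, which chance exceeds in about 1 of 20 groups. It was checked for the 7 members with a mean of at least 1 FPKM and their sum. PT3 was a library of low estimated depth, at 0.166 of that of AstroEGFR*3 Zfp423, and the part of depth in this value was not tested.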

How the results depend on the processing

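In the comparison of PT with AstroEGFR*, 0 members passed, but 1 (Tmem119) did with a pseudocount of 0.1 or with scaling that left out small non-coding RNA and histone genes, and 2 with the batch as a replicate block. With PT1 and PT4 averaged, 0 members passed. Of the further myeloid genes, 0 passed, but 1 did without a filter, with that scaling or without a mean-variance trend, 2 with the replicate block, and 0 to 2 with 1 library left out, the 2 being without AstroEGFR*2. The median difference of the tested members, -1.37, was -2.87 with a pseudocount of 0.1, -0.33 without a filter (37 members) and -0.39 with all 10 libraries in 1 fit (35 members), and ranged from -2.40 (without AstroEGFR*2) to -0.87 (without PT2) with 1 library left out. With the Zfp423 vector, 0 members and 0 further myeloid genes passed in all settings tried, with or without the replicate block, where 0 to 51 of all features did. The median difference of the members, 3.06, ranged from 2.25 (without batch 1) to 4.77 (without batch 3). The difference of Tmem119, 0.44, turned to -0.36 with a pseudocount of 0.1, -0.53 without batch 1 and -1.42 without batch 2, and was 3.26 without batch 3.

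The ratios of the summed FPKM in batches 1, 2 and 3, 17.0, 39.9 and 1.16, became 80.3, 126 and 0.0422 without Lgals3, Lcp1, Cd68, Ctss and Coro1a, 60.8, 230.5 and 0.0363 with the median in place of the sum, and 86.4, 159.7 and 0.172 without Lgals3 and Tmem119, the last chosen after seeing the data. The count of 36 members above the other libraries was 36 without AstroEGFR*3 and PT3 and 37 without AstroEGFR*1, and the count of 15 lower in PT was 25 and 15, both chosen after seeing the data. The cause of these changes was not tested. Without counts, low values in AstroEGFR*3 and PT3 carry little precision.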
